A study of Mus musculus with 6 samples.

Results

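The genes described here are 8 genes of cholesterol synthesis and its control: the enzyme genes Hmgcs1, Idi1, Fdps, Sqle, Lss and Cyp51, and the regulators Srebf2 and Insig1. They were found by name in the platform annotation, among probes that list a single gene symbol and lie outside the last 8 rows of the array. This gave 11 probes of the 35587 on the array, and 8 genes of the 18069 that single-symbol probes name over the whole array. Srebf2 had 3 probes, Cyp51 had 2 and each other gene had 1. A further 2 probes list Srebf2 together with another gene and were not used. The samples were spleens of female BALB/c mice at postnatal day 21. The Pb group had received lead (Pb) at 0.1 mM since gestation day 8, and the other mice are labelled control. The labels do not give the route of exposure. There were 3 animals and 3 arrays in each group. Across probes, Pb replicate 3 had an r of 0.045 to 0.048 with the control arrays, far from the 0.94 or more between those, and was left out, so the comparison rests on Pb replicates 1 and 2 against 3 control arrays, each corrected for position on the array.

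Cells make cholesterol from acetyl-CoA through the mevalonate pathway. Hmgcs1 acts near its start, Idi1 and Fdps build the isoprenoid units, Sqle and Lss turn squalene into lanosterol, and Cyp51 removes a methyl group from lanosterol on the way to cholesterol. Srebf2 encodes SREBP2, the transcription factor that turns these genes on when sterol in the endoplasmic reticulum is low, and Insig1 encodes a membrane protein that holds the SREBP2 precursor there when sterol is high. In spleen, dividing lymphocytes and red cell precursors need sterol for new membrane.

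The promoters are shown for Hmgcs1 and Srebf2 because SREBP2 is known to act through the sterol regulatory element, and these windows held its full letters (Hmgcs1) and its short core in the gene of the factor itself (Srebf2). RefSeq windows (GRCm38.p6) from 250 bases before to 50 bases after the gene start were at hand for 6 of the 8 genes. Capitals mark the sterol regulatory element (TCACNCCAC, or its core CACNCCA, which lies inside it), the CCAAT box bound by NF-Y (CCAAT) and the GC box bound by Sp1 (GGGCGG), each searched on both strands. The Hmgcs1 window lies at chr13:119690101-119690400 and the Srebf2 window at chr15:82147019-82147318, both on the plus strand.
Hmgcs1: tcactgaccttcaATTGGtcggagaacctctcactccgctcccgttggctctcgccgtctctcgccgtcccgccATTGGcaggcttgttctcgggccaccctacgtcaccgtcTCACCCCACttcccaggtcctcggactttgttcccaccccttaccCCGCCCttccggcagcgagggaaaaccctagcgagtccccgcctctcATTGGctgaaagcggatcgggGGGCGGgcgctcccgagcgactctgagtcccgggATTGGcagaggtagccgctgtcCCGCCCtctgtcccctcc
Srebf2: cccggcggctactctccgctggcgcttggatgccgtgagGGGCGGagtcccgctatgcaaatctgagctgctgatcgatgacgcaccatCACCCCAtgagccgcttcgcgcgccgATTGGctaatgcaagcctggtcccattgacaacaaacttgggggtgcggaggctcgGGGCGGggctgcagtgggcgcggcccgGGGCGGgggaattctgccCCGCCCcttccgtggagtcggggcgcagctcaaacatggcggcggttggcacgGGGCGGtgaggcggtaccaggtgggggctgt

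In the Hmgcs1 window the full sterol regulatory element began 137 bases before the gene start, and the CCAAT letters occurred 4 times. The Srebf2 window held the core 161 bases before the start, 1 CCAAT box and 5 GC boxes. The full element was in 1 of the 6 windows (Hmgcs1), and in 1.24% of all 32851 promoter windows. The core was in 3 of 6 (Hmgcs1, Srebf2 and Insig1), and in 18.4% of all windows. A CCAAT box was in 6 of 6 windows, and in 37.4% of all. A GC box was also in 6 of 6, and in 35.7% of all. These are matches of letters in a window and not measured binding.

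No probe of these genes passed the test in Pb spleens, and Insig1 was too dim to be tested. Of the 11 probes, 8 were bright enough on average to be tested (by their mean log2 intensity, the lowest 30% of probes being left out), which covers 7 genes. In limma 0 of these 8 probes passed an adjusted p of 0.05, and 1 had an unadjusted p under 0.05. Over all 24464 probes tested, 15 passed (0.0613%), and 1757 had an unadjusted p under 0.05 (7.18%). The log2 differences of the 11 probes ran from -0.95 to 0.58 with a median of -0.0067, beside a median of 0.031 over all 34949 probes of these array rows. That median of the 11 is the value of the dim Insig1 probe. Over the 8 tested probes alone the median was 0.17, beside 0.030 over all probes tested. The groups did not overlap for 2 of the 11 probes, 1 of Sqle and 1 of Srebf2, and in both the Pb arrays were the lower ones. The groups did not overlap in 24.9% of all probes, with Pb the lower in 11.9%, so the count of 2 is near the background. Both probes were among the 8 tested, where the share over all tested probes was 26.7%. In bulk spleen, fewer cells of a type and less RNA per cell cannot be told apart.

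**Figure D1:**
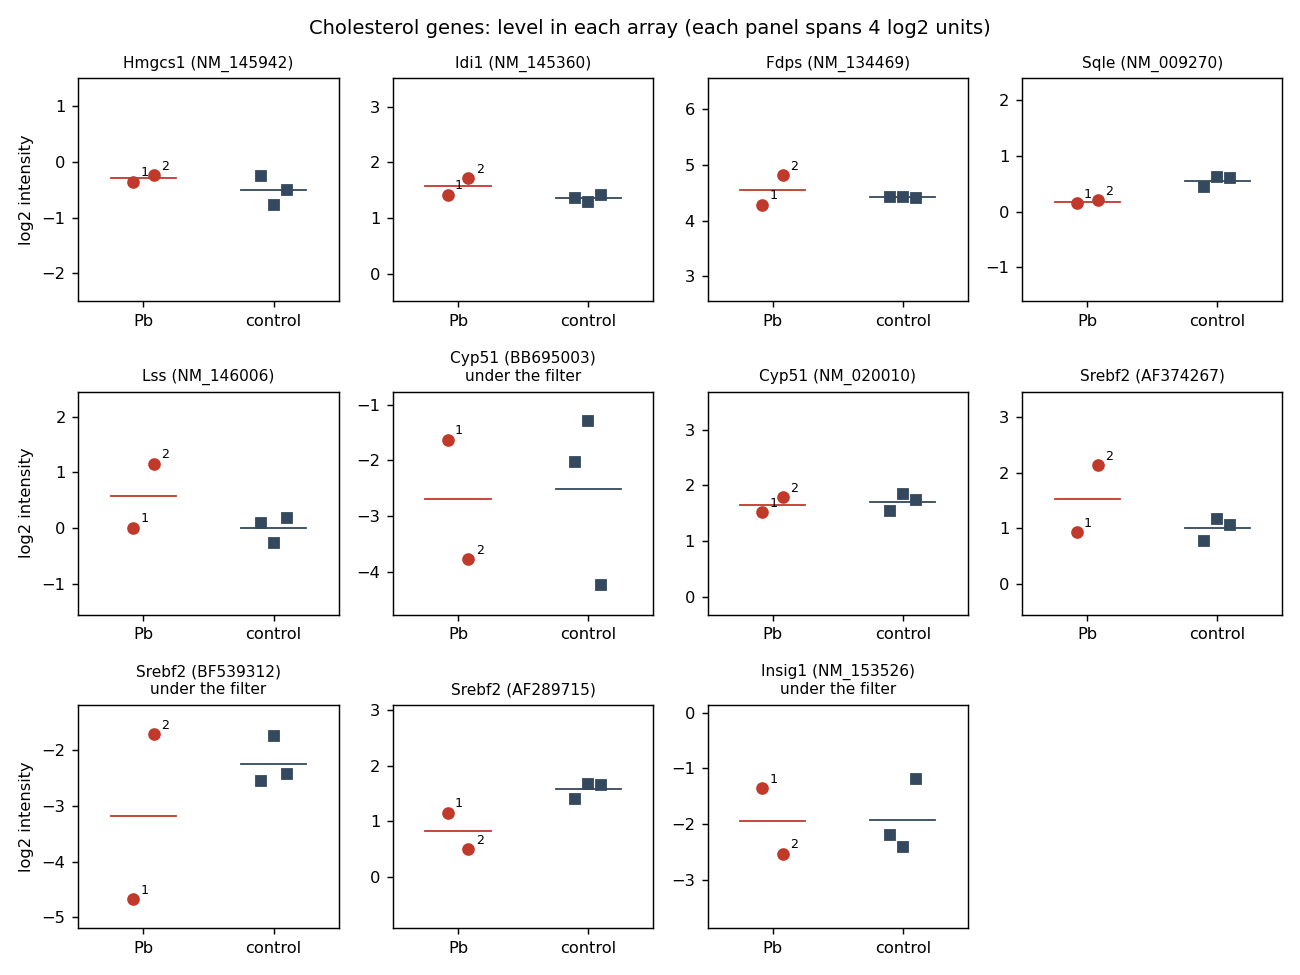
Corrected log2 intensity (y axis) in each array for the 11 probes, with red circles for Pb replicates 1 and 2, dark squares for control replicates 1 to 3 from left to right, and a line at each group mean. Each panel spans the same range of 4 log2 units; in Sqle and in the AF289715 probe of Srebf2 both Pb circles lie below all 3 control squares, and in the other 9 panels the groups overlap.

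Hmgcs1 encodes the cytosolic synthase that joins acetyl-CoA and acetoacetyl-CoA to HMG-CoA. Its log2 intensity was -0.35 and -0.24 in Pb replicates 1 and 2, against -0.26, -0.76 and -0.50 in control replicates 1 to 3. Pb replicate 1 lay within the control range and Pb replicate 2 just above it. The log2 difference was 0.21 (SE 0.21, 95% confidence interval -0.29 to 0.72, limma adjusted p = 0.733). As deposited, without correction for position, it was -0.77 (adjusted p = 0.444). The 16 probes within 1 array row and 3 columns of it had a median difference of -2.26 from the control mean in Pb replicate 2 as deposited, and the Hmgcs1 probe itself -1.45.

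Idi1 encodes the isomerase that makes dimethylallyl diphosphate. The Idi1 probe had 1.41 and 1.72 in the Pb arrays, against 1.36, 1.29 and 1.41 in the control arrays. Pb replicate 2 was above every control, and Pb replicate 1 fell just under the highest control. The difference of 0.21 (SE 0.18, adjusted p = 0.698 in limma) has a 95% interval that runs from a 0.855-fold to a 1.57-fold level in Pb. Before correction Pb replicate 2 exceeded the control mean by 2.39, and its 18 neighbouring probes did so by a median of 1.98.

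Fdps encodes the synthase of farnesyl diphosphate, from which sterols and protein prenyl groups are made. Its corrected log2 intensity was 4.29 and 4.82 in Pb, against 4.42, 4.43 and 4.41 in control. Pb replicate 1 lay below and Pb replicate 2 above all controls, which were close together. The difference was 0.13 (SE 0.21, 95% interval -0.38 to 0.64, limma adjusted p = 0.838). The deposited intensities were 13.6 and 25.5 in Pb, against 24.96, 24.1 and 23.3 in control, so the deviation of Pb replicate 1 from the control mean, -0.82 on the log2 scale as deposited, was -0.13 after correction. Its 15 neighbouring probes were at a median of -0.47 in that array as deposited. With a surface that follows array rows alone the difference turned to -1.07 (adjusted p = 0.115).

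Sqle encodes squalene epoxidase, which uses oxygen and is a rate-limiting step of the later pathway. The Sqle probe had 0.15 and 0.20 in Pb, against 0.44, 0.63 and 0.60 in control. Both Pb arrays lay below all 3 controls and close to each other. The log2 difference of -0.38 (SE 0.17, 95% interval -0.79 to 0.02) did not pass over all probes (limma adjusted p = 0.622). Pb was lower in each alternative tried, from -0.33 to -1.86, with a smallest adjusted p of 0.115. The deposited intensities were 0.855 and 0.602 in Pb, against 1.501, 1.70 and 1.66 in control, but its neighbouring probes were also dim as deposited, by medians of -0.57 in Pb replicate 1 and -1.34 in Pb replicate 2. After correction those 13 neighbours had a median difference of -0.16.

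Lss encodes lanosterol synthase, which closes the sterol rings. After correction the 2 Pb arrays parted, with 0.0030 in Pb replicate 1 and 1.16 in Pb replicate 2, against 0.09, -0.26 and 0.18 in control. Pb replicate 1 lay within the control range, and the high corrected mean rests on Pb replicate 2. The difference was 0.58 (SE 0.36, 95% interval -0.31 to 1.47, limma adjusted p = 0.635), and 0.00079 without Pb replicate 2. As deposited the Pb arrays did not part. Both lay above all 3 controls, by 0.45 and 0.44 over the control mean on the log2 scale. Correction took Pb replicate 1 to 0.00079 and Pb replicate 2 to 1.15. The neighbouring probes as deposited were at medians of 0.49 in Pb replicate 1 and -0.11 in Pb replicate 2. The 20 probes around Lss had a median difference of 0.38 after correction. The part of that local shift in the value of Lss was not tested.

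Cyp51 encodes lanosterol demethylase, and its probes for NM_020010 and BB695003 differed in brightness. The NM_020010 probe had 1.52 and 1.78 in Pb, against 1.54, 1.84 and 1.73 in control, with Pb on both sides of the control mean. Its difference was -0.048 (SE 0.19, 95% interval -0.51 to 0.41, limma adjusted p = 0.940). As deposited it was 1.26 (adjusted p = 0.320), where Pb replicate 2 and its 15 neighbours were bright alike, by 2.19 and a median of 2.12. The BB695003 probe lay under the filter, at the 16.4th percentile of control levels, and was not tested. It had -1.62 and -3.77 in Pb, against -2.02, -1.30 and -4.23 in control, where 1 control value had been under 0 as deposited and was raised to the floor.

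**Figure D2:**
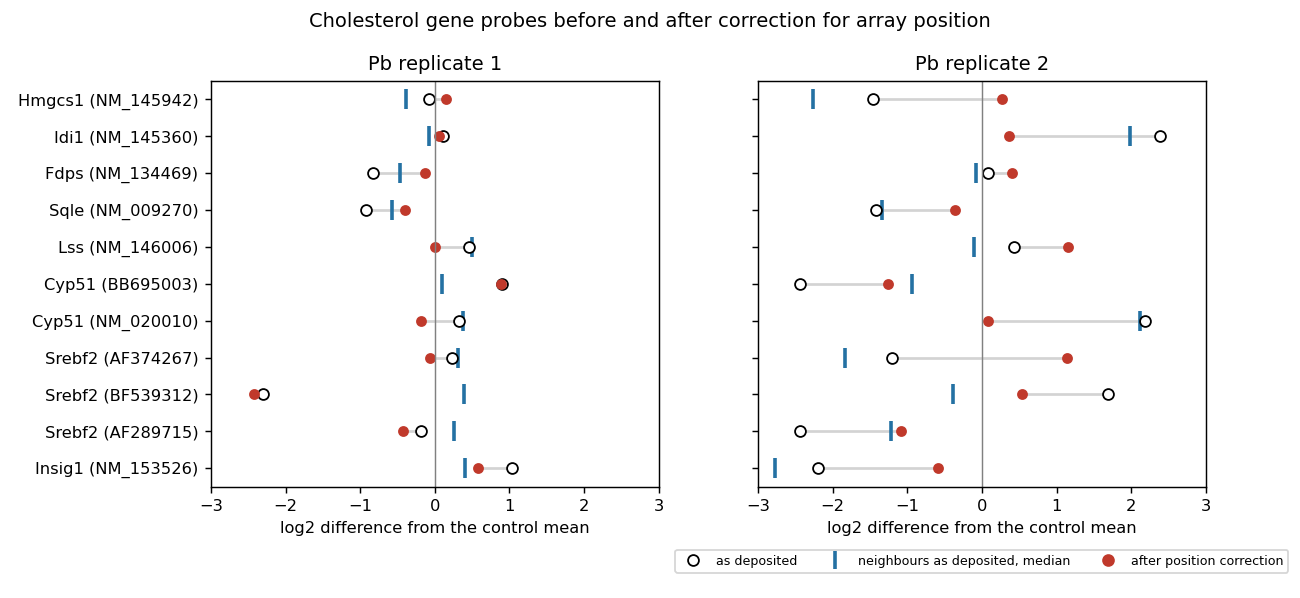
Log2 difference from the control mean (x axis) of each probe (rows) in Pb replicate 1 (left panel) and Pb replicate 2 (right panel), with open circles as deposited, red circles after position correction and blue ticks for the median of the neighbouring probes as deposited. In Pb replicate 2 the deposited differences run from -2.44 to 2.39. Those of Idi1, Cyp51 (NM_020010) and Sqle lie near their neighbours, and after correction they are 0.36, 0.08 and -0.36. Other probes lie further from their neighbours. Srebf2 (BF539312) is at 1.69 against -0.39, Srebf2 (AF289715) at -2.44 against -1.22, and Cyp51 (BB695003) at -2.44 against -0.94.

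Srebf2 encodes the factor that controls the enzymes above, and after correction for position its 3 probes did not give 1 answer. The AF374267 probe had 0.93 and 2.14 in Pb, against 0.77, 1.17 and 1.06 in control. Pb replicate 1 lay within the control range and Pb replicate 2 above it. The difference was 0.53 (SE 0.37, 95% interval -0.37 to 1.44, limma adjusted p = 0.650), and -0.067 without Pb replicate 2. As deposited it had the other sign, at -0.48 (limma adjusted p = 0.614).

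After correction the AF289715 probe of Srebf2 pointed the other way. It had 1.15 and 0.50 in Pb, against 1.41, 1.67 and 1.66 in control, so both Pb arrays lay below all 3 controls. The difference was -0.75 (SE 0.25, 95% interval -1.35 to -0.15), and it did not pass over all probes (limma adjusted p = 0.622). As deposited, this probe had a difference of -1.32 (limma adjusted p = 0.335). It is the probe with an unadjusted p under 0.05 among the 8 tested, and the size of its difference lay at the 93.3rd percentile of all probes tested. Its 19 neighbours had a median difference of -0.0057. This probe and that of Lss lie in the same array row, 383, at columns 63 and 93. In Pb replicate 2 they differed from the control mean by -1.08 and 1.15 after correction, and by -2.44 and 0.44 as deposited.

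The BF539312 probe of Srebf2 lay under the filter and was not tested. It had -4.67 and -1.71 in Pb, against -2.56, -1.74 and -2.43 in control, and its Pb replicate 1 value had been under 0 as deposited. With corrected differences of 0.53, -0.75 and -0.95 in 3 probes of the same gene, no direction is given for Srebf2. As deposited, the AF374267 and AF289715 probes both had a lower mean in Pb, with the low values in Pb replicate 2. AF374267 differed from the control mean by 0.23 in Pb replicate 1 and -1.20 in Pb replicate 2, and AF289715 by -0.19 and -2.44. The neighbours of these probes were also dim in Pb replicate 2 as deposited, by medians of -1.83 and -1.22. The BF539312 probe as deposited differed from the control mean by -2.30 in Pb replicate 1 and 1.69 in Pb replicate 2. The files do not say which part of the transcript each probe binds.

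Insig1, the sterol-dependent anchor of the SREBP2 precursor, was dim throughout. It had -1.36 and -2.53 in Pb, against -2.19, -2.42 and -1.20 in control. Pb replicate 1 lay within the control range and Pb replicate 2 just below it, with a difference of -0.0067 and no test, since the probe lay under the filter at the 25.5th percentile of control levels. In Pb replicate 3, which was left out, the deposited value at this probe was 31.8, against 0.496 and 0.053 in the other Pb arrays and 0.206, 0.184 and 0.376 in control.

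**Figure D3:**
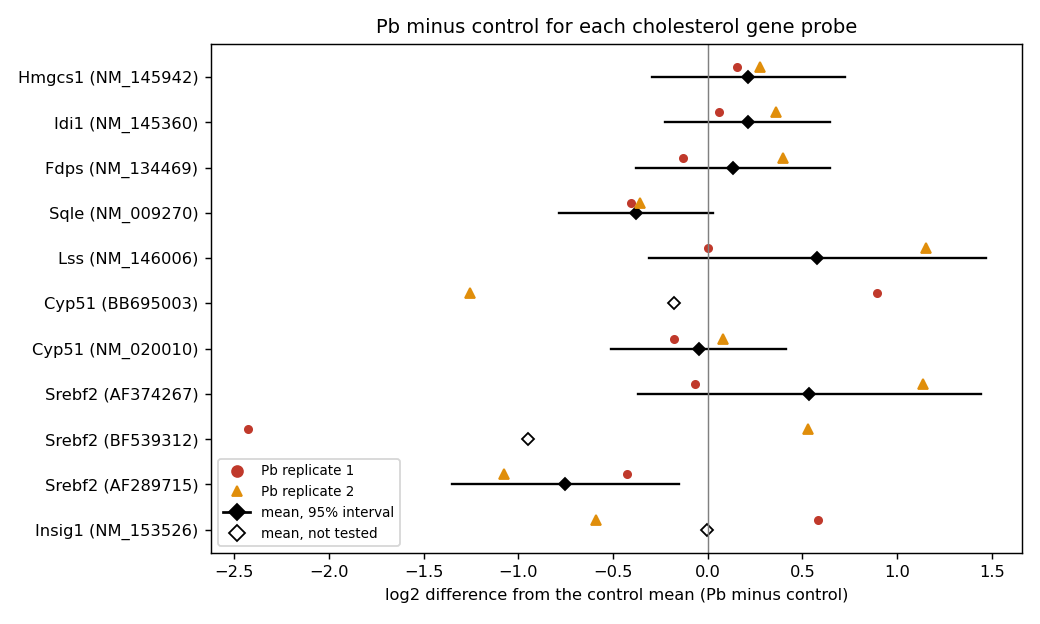
Log2 difference from the control mean (x axis) for the 11 probes (rows), with red circles for Pb replicate 1, orange triangles for Pb replicate 2, filled diamonds with bars for the mean and 95% interval in limma, and open diamonds for probes under the filter. The bar of the AF289715 probe of Srebf2 lies below 0 (-1.35 to -0.15, adjusted p = 0.622), and the other 7 bars include 0.

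The genes did not move as a block. Both Pb arrays fell on the same side of the control mean for 5 of the 11 probes, 3 higher and 2 lower, where this held for 57.7% of all probes. The median over the 11 probes was -0.067 in Pb replicate 1 and 0.27 in Pb replicate 2. Over all tested probes, Pb replicate 2 was the wider Pb array in its differences from the control mean. The scaled spread of these differences was 0.50 in Pb replicate 2, against 0.30 in Pb replicate 1. With Pb replicate 1 left out, 3 of the 8 tested probes passed in limma: Lss at 1.13 (adjusted p = 0.043), and Srebf2 at 1.12 for AF374267 (adjusted p = 0.038) and -1.09 for AF289715 (adjusted p = 0.031). In that fit 12.0% of all probes passed as well, with the wider Pb replicate 2 as the lone Pb array, assumed to vary like the controls.

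The rest of the pathway was read from 4 lists, with the brightest probe per gene. Of 40 genes measured 39 were tested, and 0 rose and 0 fell in limma, while 3 had an unadjusted p under 0.05, all higher in Pb. The groups did not overlap for 14 of the 40 genes, with Pb higher in 7 and lower in 7, beside 13.0% and 11.9% of all probes. The median difference of the 40 genes was -0.012. The genes named from these lists are those with the smallest p in each direction, and none passed. Without position correction the differences of Mvd, Ube2g2, Insig2, Scap, Apoe, Lipa and Acss2 changed sign, with no call.

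Among 14 other sterol enzymes the median difference was -0.10, with 3 above 0 and 11 below, where 53.3% of all probes lay above 0. Fdft1, the synthase that makes squalene, had 0.48 and 0.79 in Pb, against 0.11, -0.12 and 0.17 in control (difference 0.58, SE 0.19, limma adjusted p = 0.622). Both Pb values were above all controls. Mvd, the decarboxylase of mevalonate diphosphate, had a difference of 0.29. Sc5d, a desaturase of the last steps, had 3.04 and 3.13 in Pb, against 3.41, 3.44 and 3.47 in control (difference -0.35, SE 0.16, adjusted p = 0.622). Both Pb values were below all controls, and Tm7sf2, a sterol reductase, had -0.23.

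In the 7 measured genes of sterol sensing and SREBP processing the median difference was 0.14. It was -0.11 in Pb replicate 1 and 0.34 in Pb replicate 2. Scap, the escort that carries SREBP out of the endoplasmic reticulum, had -0.25 (SE 0.19), and Mbtps2, a protease that releases the active factor, had -0.21 (SE 0.16). Both lay below all controls in both Pb arrays. Insig2, the paralog of Insig1, had 0.21. Ube2g2, a ubiquitin-conjugating enzyme of the pathway that degrades HMG-CoA reductase, had 1.18 and 2.61 in Pb, against 0.78, 1.20 and 0.78 in control. Its difference of 0.97 (SE 0.43, limma adjusted p = 0.622) rests mostly on Pb replicate 2. It was 1.67 with Pb replicate 1 left out, and -0.88 without position correction.

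In 10 genes of uptake, efflux and storage the median difference was -0.079, and was 0.036 in Pb replicate 1 and -0.20 in Pb replicate 2. Apoe, a lipoprotein component that macrophages secrete, had 6.08 and 6.13 in Pb, against 5.62, 5.74 and 5.72 in control (difference 0.41, SE 0.16, limma adjusted p = 0.622). Lipa, the lysosomal lipase, had 1.01 and 1.75 in Pb, against 0.96, 0.93 and 0.89 in control. Its difference of 0.45 was 0.086 without Pb replicate 2, and passed at 0.77 without Pb replicate 1 (limma adjusted p = 0.043). Abca1, the exporter of cholesterol, had 0.97 and 0.32 in Pb, against 1.01, 1.15 and 1.34 in control (difference -0.52, SE 0.25, adjusted p = 0.622). Ch25h, which makes an oxysterol that blocks SREBP processing, had -0.52 (SE 0.23). Over the 10 genes the groups did not overlap for 5, with Pb higher in 2 and lower in 3 (Mylip the other lower one, at -0.29), where they did not overlap in 26.7% of all probes tested.

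In 9 fatty acid genes that SREBP1 controls the median difference was 0.13, and was -0.17 in Pb replicate 1 and 0.53 in Pb replicate 2. In 3 of the 9 both Pb values exceeded every control, beside 14.0% of all probes tested. Scd2, a desaturase, had 1.53 and 2.36 in Pb, against 0.92, 1.17 and 1.37 in control (difference 0.79, SE 0.30, limma adjusted p = 0.622). That difference was 0.37 without Pb replicate 2, and passed at 1.21 without Pb replicate 1 (adjusted p = 0.036). Acly, which supplies acetyl-CoA, had 0.31, and the carboxylase Acaca and the synthetase Acss2 had -0.19 and -0.11. For Acaca and Acss2 the Pb arrays fell on opposite sides of the controls.

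**Figure D4:**
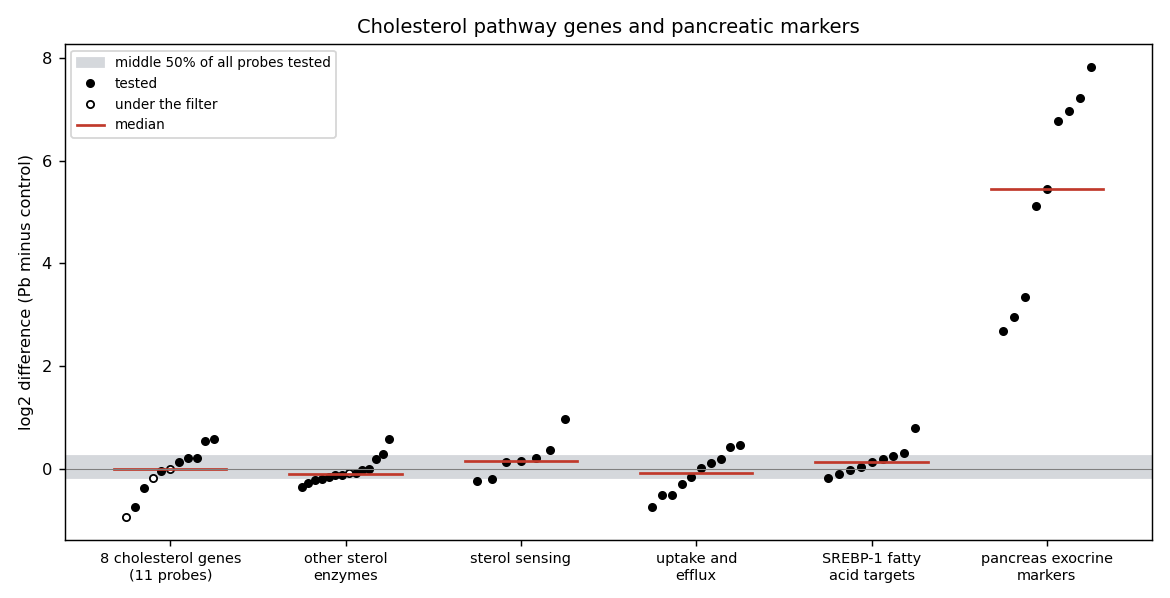
Log2 difference, Pb minus control (y axis), of each gene or probe in 6 lists (x axis), with filled circles tested, open circles under the filter, red lines at list medians and a grey band for the middle of all probes tested (-0.19 to 0.25). The 5 cholesterol and lipid lists have medians from -0.10 to 0.14, while the 9 pancreatic exocrine genes lie between 2.69 and 7.84.

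Among spleen markers in control arrays, the 5 measured B cell genes had a median level at the 91.0th percentile of all probes (from 39.98 for Pax5 to 98.3 for Cd79b), the 5 T cell genes at the 85.5th, the 3 red cell genes at the 95.2nd and the 3 red pulp macrophage genes at the 81.2nd. All 9 measured markers of exocrine pancreas were higher in each of the Pb arrays than in any control, with a summed linear intensity of 128 and 165 in Pb, against 4.39 to 5.004 in control. The summed intensity of 4 adipocyte markers, of which Fabp4 was the brightest, was 15.6 and 28.4 in Pb, against 11.2 to 17.7 in control. Pb replicate 1 thus lay within the control range. Of the 4 markers 3 had differences above 0, and Lep, under the filter, had -0.69. The sum of 6 cell cycle genes, of which Mki67 was the brightest, was 478 and 527 in Pb, against 509 to 565 in control. Mki67 had a log2 difference of -0.37, while 5 of the 6 genes had differences above 0. The median difference of the 6 was 0.21, and was -0.18 in Pb replicate 1 and 0.68 in Pb replicate 2. The sum of the 11 cholesterol gene probes, of which Fdps was the brightest, was 32.9 and 45.5 in Pb, against 35.2 to 36.8 in control. What part pancreatic or fat RNA had in the values of the cholesterol genes was not tested.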

How the data were processed

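Total RNA of spleen was labelled with Cy5 and read on 1-colour CodeLink arrays, per the labels. The deposited values are probe intensity values on a linear scale, whose array medians lie between 0.972 and 0.987. How the authors scanned, background-corrected and normalized them is not given in the sources used here. Log2 was taken after the 151 to 711 values per array at or under 0 had been set to a floor, the 1st percentile of that array's positive values. The last 8 array rows and Pb replicate 3 were left out. A smooth surface over array row, array column and level was fitted with mgcv 1.9.3 to each array's departure from a common mean (3 controls and Pb replicate 1) and subtracted in 2 rounds, with basis sizes of 40 (row), 8 (column) and 6 (level). Correlation of Pb replicate 2 with control arrays was 0.656 to 0.666 before and 0.917 to 0.918 after, a gain that is partly built in. The 24464 probes at or above the 30th percentile of mean log2 intensity entered lmFit and eBayes of limma 3.58.1 (R 4.3.3). The test was two-sided, with Benjamini-Hochberg adjustment over all these probes. The script was also run on simulated data. There Pb replicate 2 had a smooth position shift that did not depend on level, so the run does not show how well the real array was corrected. Precision is limited by the number of arrays, and the files used hold no detection calls. Symbols of all 8 genes matched RefSeq (GRCm38.p6) by entrez identifier. All 11 probes of the genes are described. In each of 4 further lists the genes named are the 2 with the smallest p in each direction. Genes and lists were chosen with earlier results of these data known. Alternatives changed the correction, filter, scaling, weights, replicate block and arrays.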

Additional observations from a re-analysis of the deposited data

How the results depend on the processing

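The count of 0 cholesterol gene probes past the adjusted threshold stayed 0 in 16 of 17 alternatives, and was 0 to 3 with 1 array left out. The count of other pathway genes likewise stayed 0 in 16 of 17, and was 0 to 6 with 1 array left out, the exception in both being Pb replicate 1. The 15 of all probes became 0 without position correction, 0 without the filter on dim probes, 0 with all 6 arrays as deposited, 7 with array weights, 7 with the replicate block, and 2 to 2926 with 1 array left out. With Pb replicate 1 kept, at most 20 of all probes passed in any alternative. The counts of 0 among the cholesterol and other pathway genes thus say little about these genes. The median of the 11 probes (-0.0067) became -0.48 without position correction, where the median over all probes tested was -0.14. When the surface followed only array rows it was 0.13, beside -0.23 over all probes tested. With all 6 arrays as deposited it was -0.25, beside -0.40. It was -0.067 to 0.26 with 1 array left out, beside -0.0067 to 0.074. Of 139 comparisons of single probes, 120 kept sign and side of the threshold, 16 changed sign with no call and 3 gained a call, those without Pb replicate 1. Of 270 comparisons of the other named genes, 247 kept both, 20 changed sign with no call and 3 gained a call. Alternatives that changed only the filter reused the corrected values, so no sign could change in them. Dim probes entered few alternatives because of the filter. For the replicate block, deviations of same-numbered arrays had r of 0.026 and 0.00016, and the meaning of a shared number is not in the labels. The surface taken from the 3 controls alone was chosen after seeing the data. Fewer arrays leave fewer degrees of freedom. Elsewhere the cause was not tested.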
